A study of Rattus norvegicus with 8 samples.

Results

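The D-type cyclins Ccnd1, Ccnd2 and Ccnd3, their kinases Cdk4 and Cdk6, the CDK inhibitors Cdkn1a, Cdkn1b, Cdkn1c and Cdkn2c, and the pocket protein Rb1 were followed in ovaries of immature rats. Members were taken by gene symbol among the non-control probes of the array. All 10 genes were found, on 12 probes, out of 21926 genes and 25303 probes tested. Ovarian RNA of female rats was hybridised to 1-colour Agilent arrays, 4 labelled control and 4 labelled PMSG. PMSG, pregnant mare serum gonadotropin, is a hormone preparation that stimulates the growth of ovarian follicles. Animals of the PMSG label received 50 IU under the skin at 26 days of age, in 0.2 ml of an albumin phosphate buffer. Those labelled control received the buffer only, although their sample titles read "Reference without treatment". Ovaries of both groups were collected 48 h after the injection, when the rats were 28 days old. The labels do not say whether the 4 arrays of a label came from separate animals, so p-values measure the spread between these samples, which may be technical.

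D-type cyclins couple growth signals to cell division: they activate Cdk4 and Cdk6, which phosphorylate Rb1 and so release E2F transcription factors that drive genes of DNA synthesis. The Cip/Kip inhibitors Cdkn1a (p21), Cdkn1b (p27) and Cdkn1c (p57) bind cyclin-kinase complexes, whereas the INK4 inhibitor Cdkn2c (p18) binds Cdk4 and Cdk6 themselves. In the ovary, Ccnd2 is the D cyclin known to answer follicle-stimulating hormone in granulosa cells, and Cdkn1b is known for restraining their division as follicles luteinise.

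Probe sequences are shown for 4 members: Ccnd1 and Cdkn2c, which passed the test in opposite directions, and Ccnd2 and Cdk4, which did not pass. Among the members that passed, Cdkn2c was the least firm. All are 60 bases long and come from the array files. They are given 5′ to 3′ in lower case throughout, with no part marked. Positions are on the build rn4 named in the file headers, and the files give no exon or UTR for them.
Ccnd1 probe, chr1:205361630-205361689, minus strand: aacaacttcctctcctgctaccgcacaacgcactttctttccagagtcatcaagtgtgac
Ccnd2 probe, chr4:163535032-163541856, minus strand: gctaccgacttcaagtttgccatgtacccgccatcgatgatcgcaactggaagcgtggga
Cdk4 probe, chr7:67017293-67017352, plus strand: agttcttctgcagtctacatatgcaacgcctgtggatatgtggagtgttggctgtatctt
Cdkn2c probe, chr5:131013102-131013161, minus strand: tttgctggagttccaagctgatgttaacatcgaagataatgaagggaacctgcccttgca
The mapped span of the Ccnd2 probe is 6825 bases, longer than the probe itself, so its ends lie on separate stretches of the genome. The other mapped probes of the members span exactly their own length, and the Ccnd3 probe is unmapped in the files.

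The promoter table of RefSeq (assembly GRCr8) matched 6 of the 10 members, Ccnd3, Cdk4, Cdkn1a, Cdkn1b, Cdkn2c and Rb1. The windows of Cdkn1b and Cdkn2c are printed because these are the members past the test that have an entry, 1 lower and 1 higher on arrays labelled PMSG. Each covers 250 bases before to 30 after the annotated start. Capitals mark matches to the GC box (GGGCGG) and the CCAAT box (CCAAT) on either strand.
Cdkn1b promoter, chr4:169491254-169491533, plus strand: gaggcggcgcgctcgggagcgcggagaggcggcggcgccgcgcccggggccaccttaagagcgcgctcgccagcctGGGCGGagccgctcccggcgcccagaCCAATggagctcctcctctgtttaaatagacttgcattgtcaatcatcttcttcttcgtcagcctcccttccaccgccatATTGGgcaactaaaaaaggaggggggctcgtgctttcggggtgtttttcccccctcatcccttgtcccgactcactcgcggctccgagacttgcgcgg
Cdkn2c promoter, chr5:129644862-129645141, minus strand: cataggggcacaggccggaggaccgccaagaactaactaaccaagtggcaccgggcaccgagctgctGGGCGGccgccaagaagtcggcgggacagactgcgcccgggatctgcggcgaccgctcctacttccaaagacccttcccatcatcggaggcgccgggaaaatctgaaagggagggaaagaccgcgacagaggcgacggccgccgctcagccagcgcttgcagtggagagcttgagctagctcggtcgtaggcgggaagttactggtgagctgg
The Cdkn1b window held 2 CCAAT boxes and 1 GC box, and the Cdkn2c window held 1 GC box. The GC box was found in 5 of the 6 members' windows and in 32.2% of all 33469 windows of the table. The CCAAT box was in 2 of the 6, Ccnd3 and Cdkn1b, against 36.2% of all windows. An E2F match (TTTCCCGC, TTTGGCGC, TTTCGCGC or TTTGCCGC) was in 1 of the 6, Rb1, against 2% of all windows. The E box CACGTG was matched 3 times in the Cdk4 window, in no other of the 6, and in 6.18% of all windows. The cyclic AMP response element TGACGTCA, TATAAA, the AP-1 site (TGACTCA or TGAGTCA) and the forkhead site GTAAACA matched 0 of the 6, against 1.78%, 13.7%, 4.42% and 3.57% of all windows. The shorter element TGACG was in 4 of the 6, Ccnd3, Cdkn1a, Cdkn1b and Rb1, against 20.2% of all windows. All were searched on both strands, and any TGACGTCA also counts as TGACG. GC content ran from 57.1% to 80.0% in the members' windows, with a median of 51.4% over the table. A match is a stretch of letters and says nothing of binding.

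Levels are log2 signal minus the array's own 75th percentile, so a level of 0 is the signal that 75% of the probes lie under. Each of the 12 member probes passed the scanner's background call on all 8 arrays, and no spot was saturated. The 75th percentile of the signal ran from 768.9 to 1103 over the arrays, and 80.8% to 84.6% of probes were well above background. Across probes, arrays of the same label correlated at 0.977 to 0.993 and arrays of different labels at 0.960 to 0.972. Array weights in limma were lowest for PMSG array 4, at 0.28, and without that array 11382 probes passed the test in place of 8658. Several genes known to answer gonadotropins went against that general knowledge: Lhcgr, Star and Cyp11a1 were lower on arrays labelled PMSG by 1.93, 2.75 and 3.36 on the log2 scale, and Amh was higher by 3.03 (limma, adjusted p = 0.00114, 0.00541, 2.32e-04 and 2.61e-04). Inhba differed by -1.32 (limma, adjusted p = 0.0237), a call lost without control array 2, control array 4, PMSG array 1 or PMSG array 2 (adjusted p = 0.0551 to 0.0641). Fshr differed by 0.34 (adjusted p = 0.480), and Cyp19a1 was not analysed here. Whether the labels of the groups were exchanged was not tested, and an exchange would turn the sign of every fall and rise given here. Every direction therefore follows the sample titles, and a fall or rise below means lower or higher on arrays labelled PMSG.

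Of the 10 members, 5 passed the test between the labels: Ccnd1, Cdk6 and Cdkn1b fell, and Cdkn1c and Cdkn2c rose on arrays labelled PMSG. The falls were 1.48-fold to 1.68-fold and the rises 1.33-fold to 1.68-fold. Ccnd2, Ccnd3, Cdk4, Rb1 and the brighter probe of Cdkn1a did not pass, while the dimmer probe of Cdkn1a, which reads a stretch further along the gene, was 3.34-fold lower. The test was limma over all probes, with adjusted p under 0.05 as the threshold. Over all tested probes, 34.2% passed, 17.6% higher and 16.6% lower, a background that is already broad. The members' 5 of 10 counts genes at their brightest probe, and by probe 7 of 12 passed. The share over the brightest probes of all genes was not computed. Values of the labels did not overlap for 6 of the 10 members, against 36.6% of all probes. The median log2 difference was -0.20 over the members and 0.11 over all probes. Centring each array on the median of all its probes moved that 0.11 to -0.054 and the calls from 4452 higher and 4206 lower to 2914 higher and 5534 lower. Under that centring 0 members were higher and 4 lower, and both rises lost their call. In whole ovaries, fewer cells of a type and less RNA per cell cannot be told apart.

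**Figure D1:**
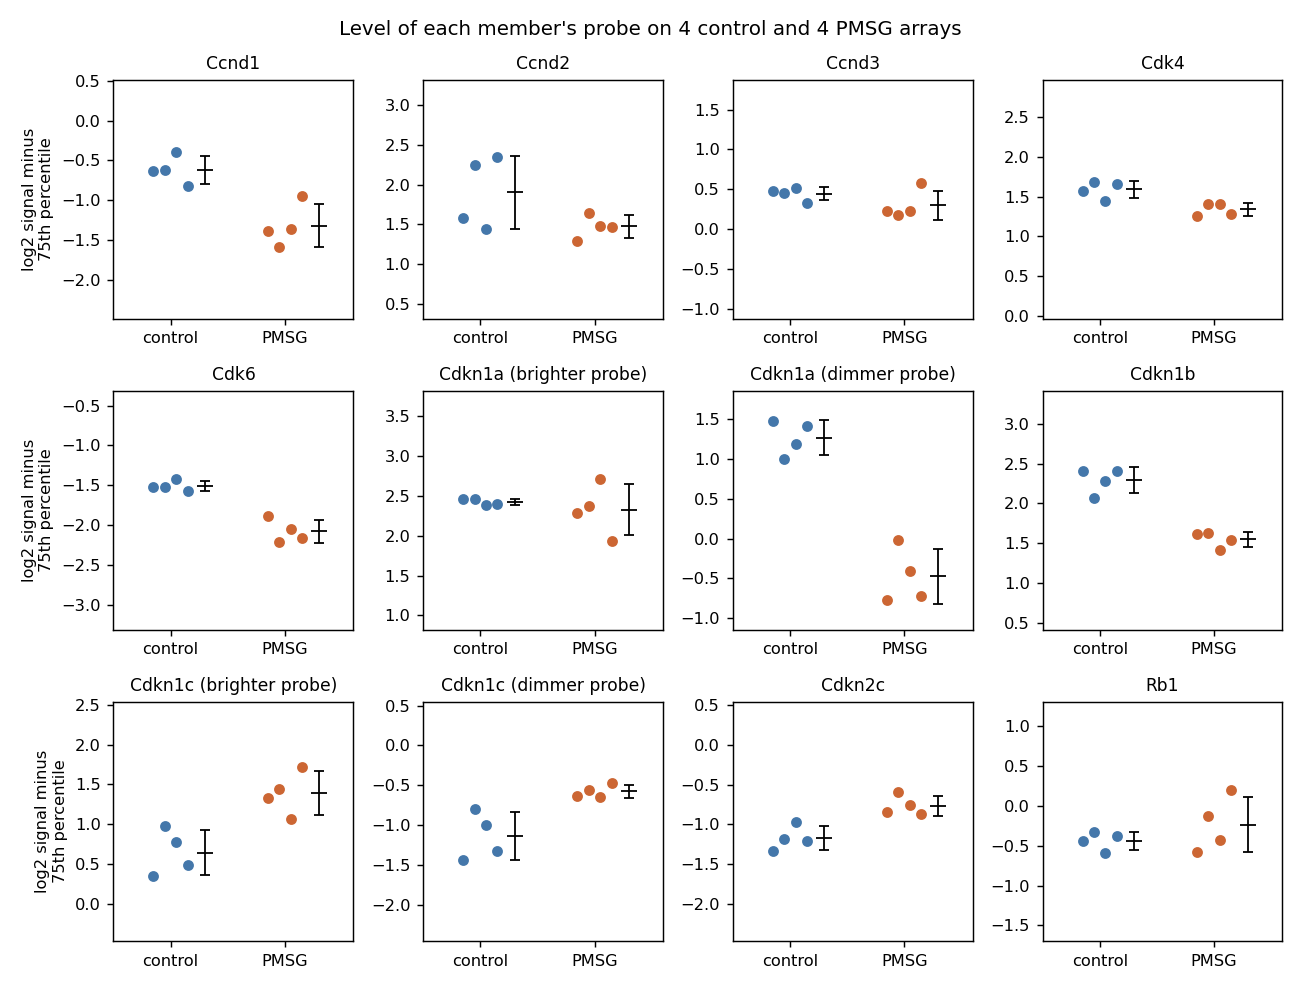
Log2 signal minus the array's 75th percentile (vertical axis, each panel 3 log2 units tall) for the 12 member probes on 4 control arrays (blue) and 4 PMSG arrays (orange), with black bars for the mean and SD. The groups separate for Ccnd1, Cdk4, Cdk6, Cdkn1b, Cdkn2c, both Cdkn1c probes and the dimmer Cdkn1a probe, and overlap for Ccnd2, Ccnd3, Rb1 and the brighter Cdkn1a probe.

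Among the D cyclins, Ccnd1 fell and the other members of the family did not pass. Ccnd1, the D cyclin many growth factors induce, read -0.64, -0.62, -0.39 and -0.82 on control arrays 1 to 4 and -1.39, -1.58, -1.36 and -0.95 on PMSG arrays 1 to 4. Every PMSG array lay under every control array, with the closest approach between control array 4 and PMSG array 4. This amounted to a log2 difference of -0.70 (SE 0.16, 95% interval -1.06 to -0.34; limma, adjusted p = 0.0100), a level 1.63-fold lower. It passed in 20 of 20 alternative settings. Here and below, such counts leave out the fits within a slide row, where Ccnd1 did not pass (limma, adjusted p = 0.0631 and 0.219). Averaging over a gene's probes, 1 of the 20, cannot change the value of a gene with 1 probe.

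Ccnd2, the D cyclin granulosa cells need for full growth of the follicle, read 1.57, 2.25, 1.44 and 2.35 on control arrays 1 to 4. It read 1.29, 1.65, 1.49 and 1.47 on PMSG arrays 1 to 4. Control arrays 2 and 4 were high, while control arrays 1 and 3 lay within the range of the PMSG arrays, so the groups overlapped. The log2 difference was -0.43 with an interval from -0.94 to 0.078 (limma, adjusted p = 0.165). Without control array 4 it was -0.28 (adjusted p = 0.355), and without control array 3 it was -0.58 (adjusted p = 0.0729). The full interval holds both no difference and a fall larger than that measured for Ccnd1. The high control arrays share a row of the slide: within slide row 1 the difference was -0.73, and within row 2 it was -0.13. With slide row as a block the Ccnd2 difference stayed at -0.43 and did not pass (limma, adjusted p = 0.0664). The cause of the unequal differences in the 2 rows was not tested.

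Ccnd3, a D cyclin often kept by differentiating cells, read 0.48, 0.46, 0.51 and 0.33 on control arrays 1 to 4. It read 0.22, 0.18, 0.23 and 0.57 on PMSG arrays 1 to 4. PMSG arrays 1 to 3 lay under all control arrays and PMSG array 4 lay above them all. Their log2 means differed by -0.14 (95% interval -0.41 to 0.12; limma, adjusted p = 0.354), and it did not pass without PMSG array 4 either (-0.23, adjusted p = 0.0641).

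The kinases both read lower on arrays labelled PMSG, and Cdk6 passed the test. Cdk6 read -1.53, -1.52, -1.42 and -1.58 on control arrays 1 to 4 and -1.89, -2.21, -2.05 and -2.17 on PMSG arrays 1 to 4. The control arrays lay close together and the PMSG arrays were all lower. Cdk6 fell by 0.57 on the log2 scale (SE 0.10), or 1.48-fold, with an adjusted p of 0.00361 in limma, and it passed in 20 of 20 alternatives. Its probe lies at chr4:27362858-27362917 on the minus strand of rn4.

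Cdk4, the partner of the D cyclins in most cells, read 1.57, 1.68, 1.44 and 1.66 on control arrays 1 to 4. It read 1.26, 1.40, 1.41 and 1.29 on PMSG arrays 1 to 4. The groups did not overlap, yet the gap between them, from 1.41 to 1.44, was narrow. Cdk4 differed by -0.25 (SE 0.095, 95% interval -0.47 to -0.031), which did not pass after adjustment over all probes (limma, adjusted p = 0.0753). Centring on the median of all probes gave -0.42 (adjusted p = 0.0424), and centring on the tested probes -0.33 (adjusted p = 0.0486), so the Cdk4 call depends on the scaling.

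The Cip/Kip inhibitors went in different directions. Cdkn1b, which holds cyclin-kinase complexes inactive in resting cells, was read by 10 spots per array at chr4:171846350-171846409 on the plus strand of rn4. It read 2.41, 2.06, 2.28 and 2.40 on control arrays 1 to 4 and 1.61, 1.62, 1.41 and 1.54 on PMSG arrays 1 to 4. The lowest control array stood well clear of the highest PMSG array. Cdkn1b fell by 0.74 on the log2 scale (SE 0.11), or 1.68-fold, with an adjusted p of 0.00157 in limma, and it passed in 20 of 20 alternatives.

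Cdkn1c, an imprinted inhibitor that marks cells leaving the cycle, was read by probes at chr1:203835291-203835350 and chr1:203836064-203836123, both on the minus strand, with starts 773 bases apart. The brighter read 0.35, 0.97, 0.77 and 0.48 on control arrays 1 to 4 and 1.33, 1.44, 1.06 and 1.72 on PMSG arrays 1 to 4. The dimmer read -1.44, -0.79, -0.997 and -1.33 on the control arrays and -0.63, -0.56, -0.65 and -0.47 on the PMSG arrays. Neither probe showed overlap between the labels, and both rose. They rose by 0.75 (SE 0.19, adjusted p = 0.0158 in limma) and 0.56 (SE 0.15, adjusted p = 0.0228) on the log2 scale, or 1.68-fold and 1.48-fold higher. Centring on the median of all probes left 0.58 at the brighter probe and ended its call (limma, adjusted p = 0.0942).

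Cdkn1a, the inhibitor that p53 induces, gave a different answer at each of its probes. The brighter, at chr20:7385536-7385595 on the plus strand, read 2.46, 2.47, 2.39 and 2.40 on control arrays 1 to 4 and 2.29, 2.38, 2.71 and 1.93 on PMSG arrays 1 to 4. The control arrays were nearly level and the PMSG arrays scattered on both sides of them. Its log2 difference was -0.10 (95% interval -0.47 to 0.26; limma, adjusted p = 0.634), with 0.031 when PMSG array 4 was left out and -0.23 when PMSG array 3 was.

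The dimmer Cdkn1a probe, at chr20:7386596-7386655, starts 1060 bases further on and read 1.48, 0.99, 1.18 and 1.41 on control arrays 1 to 4. On PMSG arrays 1 to 4 it read -0.77, -0.014, -0.40 and -0.72, all under the lowest control array. The log2 difference was -1.74 (SE 0.19, 95% interval -2.18 to -1.30; limma, adjusted p = 4.34e-04), the largest among the 12 member probes and 3.34-fold lower. Averaging both probes gave -0.92 (limma, adjusted p = 0.00238). The array's dimmer minus brighter log2 ratio ran from -1.47 to -0.98 on control arrays and from -3.11 to -2.39 on PMSG arrays, without overlap. The dimmer probe rests on 1 spot per array and the brighter on 2, and which transcripts each probe detects was not tested.

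**Figure D2:**
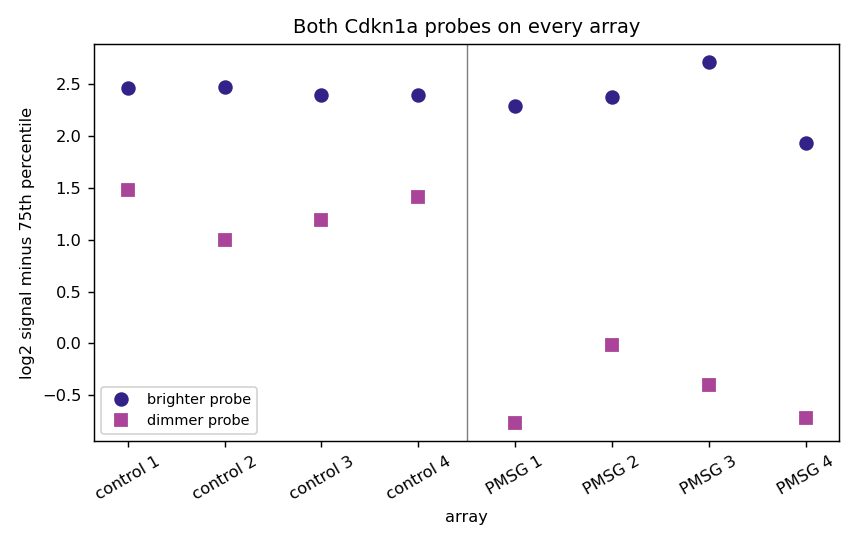
Log2 signal minus the array's 75th percentile (vertical axis) of both Cdkn1a probes on each of the 8 arrays (horizontal axis), circles for the brighter and squares for the dimmer probe. The brighter probe stays between 1.93 and 2.71 on all arrays, while the dimmer probe lies between 0.99 and 1.48 on control arrays and between -0.77 and -0.014 on PMSG arrays.

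Cdkn2c, the INK4 inhibitor among the members, rose, and it was the least firm of the 5 calls. It read -1.34, -1.19, -0.97 and -1.20 on control arrays 1 to 4 and -0.84, -0.59, -0.76 and -0.87 on PMSG arrays 1 to 4. The groups did not overlap, with control array 3 nearest to the PMSG arrays. Cdkn2c rose by 0.41 on the log2 scale (SE 0.11), or 1.33-fold, with an adjusted p of 0.0241 in limma. The call was lost without control array 1 (adjusted p = 0.0702), control array 2 (0.0629), control array 4 (0.0637) or PMSG array 2 (0.0586). Centring on the median of all probes left a difference of 0.24 (limma, adjusted p = 0.209), and centring on the tested probes 0.34 (adjusted p = 0.0592).

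Rb1, the target of the D cyclin kinases, read -0.44, -0.33, -0.59 and -0.38 on control arrays 1 to 4. It read -0.59, -0.13, -0.42 and 0.20 on PMSG arrays 1 to 4. The groups overlapped, and PMSG array 4 was the highest. The log2 difference was 0.20 (95% interval -0.20 to 0.60; limma, adjusted p = 0.384). Without PMSG array 4 it was 0.058, and without PMSG array 1 it was 0.32, neither past the threshold (adjusted p = 0.734 and 0.189). The probe lies at chr15:53829645-53829704 on the minus strand of rn4, and its first 13 bases occur again later in its own sequence.

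**Figure D3:**
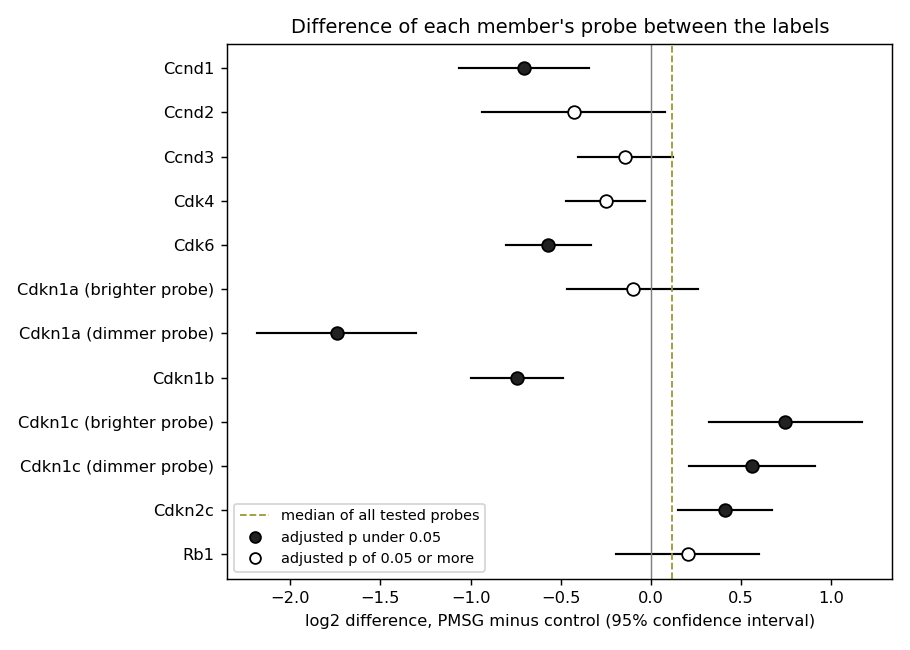
Log2 difference, PMSG minus control (horizontal axis), of each member probe with its 95% confidence interval; filled points passed the test at adjusted p under 0.05, and the dashed line is the median of all tested probes, 0.11. The dimmer Cdkn1a probe lies farthest out at -1.74, and the intervals of Ccnd2, Ccnd3, Rb1 and the brighter Cdkn1a probe cross 0.

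At the median, the members' spread between arrays was no wider than that of all tested probes, though single members exceeded it. Member SDs ran from 0.040 to 0.46 among control arrays, with a median of 0.13 against 0.16 over all probes. Among PMSG arrays they ran from 0.079 to 0.35, with a median of 0.17 against 0.27 over all probes. The widest control SD was that of Ccnd2 and the narrowest that of the brighter Cdkn1a probe.

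Within each slide row, 2 arrays against 2, the 5 members past the test kept their direction. From row 1 to row 2 the log2 difference was -0.75 and -0.65 for Ccnd1, -0.58 and -0.56 for Cdk6, and -0.72 and -0.77 for Cdkn1b. It was 0.52 and 0.97 for Cdkn1c, and 0.52 and 0.30 for Cdkn2c. The falls were thus nearly equal in both rows, whereas the rises were uneven. Cdk4 differed by -0.26 and -0.24, Ccnd3 by -0.19 and -0.099, and Rb1 by 0.081 and 0.32. The brighter Cdkn1a probe changed sign, at 0.11 and -0.32.

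Whether members shifted against each other was tested on 9 within-array log2 ratios, a set of pairs chosen after the values were seen. With 4 arrays against 4, the exact two-sided permutation test cannot go below p = 0.0286. After adjustment over the 9, a pair at that floor passes only if most of the 9 reach it. No pair passed, which therefore does not show that no pair shifted. The Cdkn1b to Cdkn1c ratio shifted most among pairs of different genes, from 1.09 to 2.07 on control arrays down to -0.19 to 0.35 on PMSG arrays. That mean shift of -1.49 reached the smallest p the exact test allows, 0.0286 (adjusted 0.0857). The Ccnd1 to Ccnd3 ratio shifted by -0.56 and the dimmer to brighter Cdkn1a ratio by -1.64, both with no overlap and the same exact p of 0.0286 (adjusted 0.0857). The Ccnd1 to Ccnd2 ratio shifted by -0.27 (exact p = 0.429) and the Ccnd2 to Ccnd3 ratio by -0.29 (exact p = 0.343). Both ratios overlapped between the labels, so whether Ccnd1 and Ccnd2 differ in their change stayed undecided. The Cdk6 to Cdk4 ratio shifted by -0.32 (exact p = 0.0857, adjusted 0.129). Cdkn1b to Cdkn1a and Cdkn1a to Cdkn1c shifted by -0.64 and -0.85 (exact p = 0.0571 and 0.0857, adjusted 0.129 for both). The dimmer to brighter Cdkn1c ratio shifted by -0.18 (exact p = 0.143, adjusted 0.184).

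Around the members, 60 of 64 further genes of the G1 pathway were tested, and 24 passed, 4 higher and 20 lower on arrays labelled PMSG. That is 40% of these genes at their brightest probe against 34.2% of all probes, and the median log2 difference was -0.26. By list, 20% of the cyclin E and A partners, 25% of the p53 pathway genes and 28.6% of the E2F and DP factors passed. The other inhibitors and pocket proteins gave 33.3%, so none of these lists exceeded the share of all probes. The E2F targets gave 50% and the regulators of D cyclin and p27 levels 77.8%. E2f2, E2f4, Tfdp1 and Fbxw7 were not analysed here. These lists were chosen with earlier results of the same data known, so their counts are not independent evidence of direction.

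Of 10 cyclin E and A genes and kinase partners, which carry the cycle from G1 into S phase, 0 were higher and 2 lower, with a median of -0.13. Ccne1, the cyclin E that activates Cdk2, fell by 0.56 on the log2 scale (limma, adjusted p = 0.00995). Ccna2, the S phase cyclin, fell by 0.57 (adjusted p = 0.0252), a call lost without control array 1, 2 or 4 or PMSG array 2 or 3 (adjusted p = 0.0519 to 0.0710).

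Of 6 other inhibitors and pocket proteins, 1 was higher and 1 lower, both by more than any member's brighter probe. Cdkn2b, the INK4 inhibitor p15, read -0.58, -0.99, -0.62 and -0.81 on control arrays 1 to 4 and -3.78, -3.73, -3.74 and -3.69 on PMSG arrays 1 to 4. It fell 7.90-fold, or by 2.98 on the log2 scale (SE 0.11, adjusted p = 1.16e-05 in limma), and its second probe by 1.89 (adjusted p = 3.45e-04). The INK4 inhibitors Cdkn2b and Cdkn2c thus stood on opposite sides, though Cdkn2c passed in only 13 of 20 alternative settings. The INK4 genes Cdkn2a and Cdkn2d differed by -0.13 and -0.24 and did not pass (limma, adjusted p = 0.658 and 0.221). Rbl2, the pocket protein p130 of resting cells, read 2.37, 2.33, 2.25 and 2.35 on control arrays 1 to 4 and 3.20, 3.19, 3.05 and 3.26 on PMSG arrays 1 to 4. Rbl2 rose by 0.85 on the log2 scale (SE 0.088, adjusted p = 3.35e-04 in limma), while its relative Rb1 did not pass.

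Of 16 E2F target genes, which supply and start DNA synthesis, 0 were higher and 8 lower, with a median of -0.49. Tk1, the thymidine kinase of S phase, fell by 1.34 (limma, adjusted p = 7.22e-04), and Rrm2, a subunit of ribonucleotide reductase, fell by 1.01 (adjusted p = 5.88e-04). Others that fell included Tyms, Cdc6, Mcm4, Mcm5 and Mcm6. Mcm4 overlapped between the labels at its brighter probe (limma, adjusted p = 0.0447), and its dimmer probe differed by 0.31 (adjusted p = 0.331). Of the E2F factors and their partner 7 were tested, 1 was higher and 1 lower, with a median of -0.0088. E2f7, a repressor of the family, differed by 0.85 (limma, adjusted p = 0.0405), and E2f6, also a repressor, by -0.53 (adjusted p = 0.0436). The E2f7 call was lost when any 1 array other than PMSG array 4 was left out (adjusted p = 0.0748 to 0.0990). The E2f6 call was lost when any 1 control array, PMSG array 1 or PMSG array 2 was left out (adjusted p = 0.0740 to 0.111).

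Of 9 regulators of D cyclin and p27 levels, 1 was higher and 6 lower, with a median of -0.40. Foxo4, a forkhead factor able to activate Cdkn1b, rose by 0.61 (limma, adjusted p = 0.00528). Fbxo4, an F-box protein linked to D cyclin breakdown, fell by 0.60 (adjusted p = 0.00451). Gsk3b, the kinase that marks cyclin D1 for breakdown, fell by 0.63 (adjusted p = 0.0212), a call lost without control array 2 or 3 or PMSG array 1, 2 or 3 (adjusted p = 0.0505 to 0.0611). The others that fell were Skp2, Myc, Cul1 and Akt1. For Skp2 this holds at the brighter probe only, as its dimmer probe differed by 0.29 (limma, adjusted p = 0.387). Of 12 p53 pathway genes, the company in which Cdkn1a is usually induced, 1 was higher and 2 lower, with a median of -0.0058. Tp53inp1 rose by 0.62 (limma, adjusted p = 0.0163), whereas Gadd45a and Ccng1 fell by 0.74 and 0.71 (adjusted p = 0.00433 and 0.00259).

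**Figure D4:**
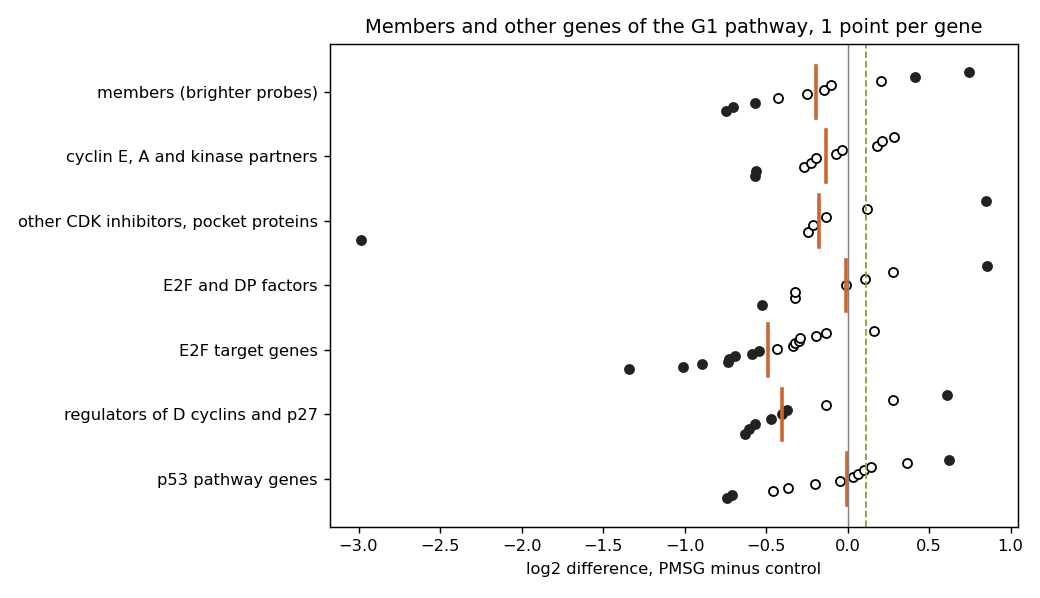
Log2 difference, PMSG minus control (horizontal axis), of each member at its brighter probe and of 60 other G1 pathway genes, 1 point per gene, grouped by list; filled points passed at adjusted p under 0.05, orange bars are list medians, and the dashed line is the median of all tested probes. The E2F target genes have the lowest median, -0.49, and Cdkn2b lies farthest left at -2.98.

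Genes that follow a member from array to array were taken as those with the highest Pearson correlation over the 8 arrays among 14792 named genes. These correlations include the difference between the labels and the arrays they share, and are given as a description. Nearest to Cdkn1b were Itga8 (r = 0.992), Homer3 (0.991) and Tmem199 (0.990), all lower on arrays labelled PMSG. Nearest to Ccnd1 were Kpna6 (0.987), Dclk1 (0.985) and App (0.981). Nearest to Cdkn1c were Col27a1 (0.982), Pdzk1 (0.982) and Slc37a1 (0.980).

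Markers of several of the ovary's cell types also differed between the labels, and their part in the members' differences was not tested. Over all tested probes 34.2% passed, 17.6% higher and 16.6% lower. A marker count near those shares shows no more than that background. All 10 oocyte markers were higher on arrays labelled PMSG, with a summed level, in multiples of the 75th percentile, of 3.4 to 6.14 on control and 12.1 to 25.7 on PMSG arrays. Granulosa markers summed to 69.4 to 107.4 on control and 64.7 to 85.8 on PMSG arrays, a sum made up mostly of the bright Inha probe. Of the 6, Amh and Esr2 were higher by 3.03 and 0.95 and Nr5a2 was lower, with a difference of -1.47, all without overlap between the labels. Theca markers gave 1 higher and 1 lower of 3 (31.6 to 40.5 on control, 23.3 to 48.2 on PMSG arrays). That sum was mostly the bright Cyp17a1 probe, which differed by -0.22 and did not pass (limma, adjusted p = 0.483). Insl3 was higher by 2.60 and Lhcgr lower by 1.93 on the log2 scale (limma, adjusted p = 3.47e-04 and 0.00114). Endothelial markers gave 1 higher and 4 lower of 8 (21.0 to 24.5 and 17.1 to 18.6), and leukocyte markers 4 higher of 6 (7.97 to 9.85 and 12.1 to 13.6). Oviduct and surface epithelium gave 5 higher of 7 (15.5 to 21.1 and 28.4 to 43.1), and fibroblast and smooth muscle 3 higher of 6 (89.2 to 116.8 and 97.6 to 132.6). Of 4 adipocyte markers 0 passed (3.95 to 24.2 and 9.39 to 24.3), and of 3 red blood cell markers 1 was lower (4.80 to 13.8 and 2.12 to 3.57). The endothelial, oviduct and surface epithelium, fibroblast and smooth muscle, and adipocyte sums were mostly 1 bright probe each: Kdr, Krt18, Col1a1 and Adipoq. No listed marker was below background on every array; Tek and Muc1 were well above it on 7 of the 8 arrays and all others on 8.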

How the data were processed

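RNA (500 ng per sample) was copied from an oligo-dT primer and labelled with Cy3, per the labels' protocols. Per the file headers, Agilent Feature Extraction 11.5.1.1 gave the spot intensity, and the build is rn4. The authors also deposited log2 values per probe; set against the scanner files, they carry the 75th percentile scaling and no centring by probe, and they served as an alternative. From the scanner files, control spots and outlier spots were left out, log2 processed signals were averaged per probe (30350 of 30367 probes usable) and each array's 75th percentile was subtracted. Probes well above background on at least 4 of 8 arrays (25303) were tested with limma 3.58.1 in R 4.3.3, without covariates, with Benjamini-Hochberg adjustment over all of them and a threshold of 0.05. The fit was checked on simulated data. All 8 arrays lay on 1 slide with 1 scan date. Slide column 1 held only PMSG arrays 1 and 2, and column 2 only control arrays 1 and 2. Slide column thus partly followed the label, and its part was not tested. A gene with several probes is represented by its brightest. Named genes are all members, the 2 largest differences past the threshold per direction and pathway list, the 3 best correlated genes for 3 members, and the label check genes; the others were named after their values were seen. Members and lists were chosen with earlier results of these data known. The ratio pairs, the centring on tested probes and the separate values of a gene's other probe were added after seeing the data. Gene symbols were taken from the scanner files. Precision is limited by 4 arrays per label.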

Additional observations from a re-analysis of the deposited data

Results flagged for a closer look

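Ccnd3 on PMSG array 4 stood apart from the other PMSG arrays: its level was 0.57 against 0.18 to 0.23, and the gap made up 0.861 of the group's whole range. This was 1 of 24 groups of 4 arrays examined over the member probes, where chance alone flags about 1 in 20, or 1.2 groups.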

How the results depend on the processing

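In 20 alternative settings besides the slide rows, Ccnd1, Cdk6 and Cdkn1b passed in 20 each, Cdkn1c in 19, Cdkn2c in 13, Cdk4 in 2, Cdkn1a in 1, and Ccnd2, Ccnd3 and Rb1 in 0. Leaving out each array in turn gave 4 to 5 members past the threshold, 18 to 25 pathway genes and 6552 to 11382 probes. With the replicate number as a block, 4 members, 18 pathway genes and 7346 probes passed, and Cdkn2c was lost (adjusted p = 0.0506). Deviations of same-numbered arrays from their group means correlated at 0.044, 0.036, 0.18 and -0.019. Different-numbered arrays were not computed as a reference, so these values do not decide whether the numbers mark pairs. With 2 arrays against 2, within slide row 1 limma passed 0 members (5 at an unadjusted p under 0.05), 7 pathway genes and 3351 probes. Within slide row 2 it passed 0 members (3 unadjusted), 0 pathway genes (14 unadjusted) and 0 probes (6015 unadjusted), with fewer arrays in each fit. Signs turned for Cdkn1a, to 0.11 within slide row 1 and 0.031 without PMSG array 4 (range without 1 array -0.23 to 0.031). They also turned for Fshr, to -0.19 within slide row 1 and -0.018 without control array 3 (range -0.018 to 0.56); neither passed in the full fit, and the cause was not tested. Higher and lower calls over all probes numbered 4182 and 4868 after quantile normalization and 3750 and 4935 when centred on tested probes, where 1 member was higher and 4 lower.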

Other observations

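Some other cell cycle genes had probes that differed in their call, in a set singled out after the values were seen. Skp2, which helps degrade p27, differed by -0.40 at its brighter probe (limma, adjusted p = 0.0372) and by 0.29 at its dimmer (adjusted p = 0.387). Mcm4, a subunit of the replicative helicase, differed by -0.55 (adjusted p = 0.0447) and 0.31 (adjusted p = 0.331). E2f3, an activator of the E2F family, differed by -0.33 at the brighter probe (adjusted p = 0.0739) and by -0.94 at the dimmer (adjusted p = 0.00111). Mcm2 differed by -0.19 (adjusted p = 0.286) and -0.59 (adjusted p = 0.0118), and E2f8 by -0.33 (adjusted p = 0.362) and -0.65 (adjusted p = 0.0255).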
